A study of Mus musculus with 26 samples.

Results

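CEBPa and CEBPb binding was compared in untreated mature 3T3-L1 adipocytes, using 1 deposited list of bound regions (peaks) for each factor. The CEBPa list held 12332 windows and the CEBPb list 14937, each window 200 bp wide. Windows of the 2 lists that overlapped by 1 bp or more were joined into 1 site, which gave 15919 C/EBP sites out of 67815 sites joined from all 15 peak lists of the series. Of the C/EBP sites, 11350 held both factors (shared, 71.3% of all C/EBP sites), 982 held only CEBPa (CEBPa-only, 6.17%) and 3587 held only CEBPb (CEBPb-only, 22.5%).

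3T3-L1 is a mouse fibroblast line that becomes fat cells after treatment with dexamethasone, insulin and IBMX (3-isobutyl-1-methylxanthine), and all cells used here had been differentiated in that way. The untreated group received no rosiglitazone, an agonist of the nuclear receptor PPARg, and the treated group received 1 µM rosiglitazone. Chromatin immunoprecipitation with sequencing (ChIP-seq) was done for CEBPa (antibody sc-61x), CEBPb (antibody sc-150x), ATF2, JUND and FOSL2 in untreated cells only. It was done in both conditions for the cofactors MED1 (2 lists per condition), CBP, p300 and NCOR (1 list per condition each). Neither C/EBP list has a replicate, so differences between the 2 factors could not be set against replicate spread, and no test between them was possible. Intervals below are 95% intervals for shares and cover counting error over sites only, and sites of 1 library are not replicates. Read depth is unknown, and a peak list offers no marker genes with which to check the labelled cell type.

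C/EBP factors are basic leucine zipper proteins that bind DNA as dimers, and CEBPa and CEBPb bind nearly the same DNA motif and can pair with each other. In adipocyte differentiation CEBPb is induced early, and it takes part in switching on CEBPa and PPARg, which then hold the mature fat cell program. CEBPb remains present in mature fat cells, so both factors can occupy the same enhancers there.

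Nearly all CEBPa windows coincided with a CEBPb window. Of the CEBPa windows, 92.04% (Wilson interval 91.55 to 92.5) were shared, and of the CEBPb windows 75.99% (75.29 to 76.66). Across the 20 chromosomes the CEBPa share ran from 89.5% on chromosome 4 to 94.8% on chromosome 13, and the CEBPb share from 70.6% on chromosome X to 79.0% on chromosome 10. The CEBPa share was thus above the CEBPb share throughout. Both shares count the same shared sites, so this follows from each chromosome holding more CEBPb than CEBPa windows. No site held more than 1 window of either list, and the longest shared site spanned 356 bp.

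The ratio of CEBPb-only to CEBPa-only sites was 3.65, but this number follows the lengths of the lists. The CEBPb list was longer by 2605 windows, so at least that many CEBPb windows had to be without a CEBPa partner. With the CEBPb list reduced to its 12332 highest scores, both factors were shared at 85.1% (84.5 to 85.7), and each class held 1834 sites. The asymmetry between the 2 single-factor classes was therefore absent at equal list length, where equal counts follow from the construction.

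The 2 C/EBP lists had more in common than each of 4 other pairs of untreated lists joined in the same way at equal length. For JUND and FOSL2, AP-1 subunits that bind DNA as a pair, 67.6% (66.9 to 68.2) of JUND windows were shared with FOSL2. For CBP and p300, closely related histone acetyltransferases, 63.8% (63.1 to 64.6) were shared. The 2 untreated MED1 lists, which are replicates of 1 protein, shared 39.0% (37.6 to 40.4). For CEBPb and ATF2, another leucine zipper factor, the value was 38.0% (37.2 to 38.8). So 2 different C/EBP factors had more windows in common than the single replicate pair among the untreated lists, which was made of a cofactor and not a DNA-binding factor.

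Whether a C/EBP window was shared depended closely on its score, the value that the authors' file gives for each peak. Scores are described here by their percentile within their own list, because the scale of a score may differ between lists. The CEBPa scores ran from 1.01 to 9.77 with a median of 1.69, and the CEBPb scores from 1.0 to 11.45 with a median of 1.7. CEBPa-only sites had a median score of 1.11, at percentile 11.2 of the CEBPa list, against 1.76 and percentile 53.3 at shared sites. CEBPb-only sites had a median score of 1.2, at percentile 18.2 of the CEBPb list, against 2.03 and percentile 61.3 at shared sites. Sites of a single factor were thus mostly low-scoring windows of their list.

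Each list was divided by score into 10 groups of nearly equal size (deciles). In the lowest decile of the CEBPa list, 66.0% (63.3 to 68.6) of windows were shared, and in the highest decile 100.0% (99.7 to 100.0), or all 1240 windows. In the lowest decile of the CEBPb list, 27.1% (24.8 to 29.5) were shared, and in the highest decile 99.5% (99.0 to 99.8), with 7 windows lacking CEBPa. The share was higher in each successive decile of the CEBPb list, and in the CEBPa list it was level at 99.5% in deciles 8 and 9. Above the 50th percentile there were 46 CEBPa-only sites (4.7% of the class) and 319 CEBPb-only sites (8.9%). Strong binding of 1 factor without a peak of the other was therefore rare in these lists.

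**Figure D1:**
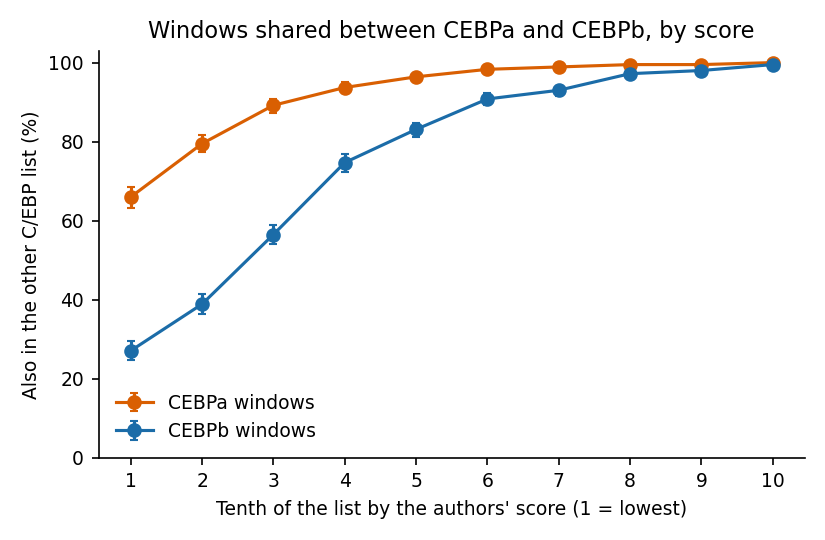
Percent of CEBPa and CEBPb windows that overlap a window of the other factor (vertical axis) in each decile of the list by the authors' score (horizontal axis, 1 is lowest), with bars for the Wilson 95% interval, which covers counting error only. CEBPa runs from 66.0% to 100.0% and CEBPb from 27.1% to 99.5%.

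At shared sites the 2 factors ranked the sites in nearly the same order. Over the 11350 shared sites, which come from 1 library per factor, Spearman's rho of the scores was 0.91 and Pearson's r of the log2 scores was 0.93. The same rho was 0.8 for JUND and FOSL2, 0.7 for CBP and p300, 0.6 for the 2 MED1 replicates and 0.35 for CEBPb and ATF2, at the deposited list lengths. The percentiles in the 2 C/EBP lists lay within 10 of each other at 61.1% of shared sites. Of the 10 highest CEBPa windows 9 were among the 10 highest CEBPb windows, and the overlap was 80 of the highest 100 and 850 of the highest 1000.

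The log2 ratio of CEBPb to CEBPa score had a median of 0.17 with quartiles of 0.02 and 0.32, and ran from -0.8 to 1.14. A gap of more than 30 percentiles was seen at 548 shared sites (4.8%). CEBPb ranked higher at 510 of these and CEBPa at 38. The longer CEBPb list gives a shared site a higher percentile there, so these counts also depend on list length. The widest gap toward CEBPb was at chrX:12504368-12504601 (mm8), with a score of 1.04 for CEBPa (percentile 4.0) and 2.17 for CEBPb (percentile 65.7). This site also held ATF2, JUND and FOSL2 and none of the untreated cofactors. The widest gap toward CEBPa was at chr1:16604426-16604675, with a score of 1.74 for CEBPa (percentile 52.1) and 1.0 for CEBPb (percentile 0.8), and no other untreated list had a window there.

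The window centres of the 2 factors almost coincided. The median distance between centres at shared sites was 11 bp, with quartiles of 5 and 21 bp and a 95th percentile of 45 bp. The centres were identical at 313 sites, within 10 bp at 48.3% and within 50 bp at 96.5%, and 27 sites had centres more than 100 bp apart. There was no offset toward either end of the chromosome: the median signed distance was 0 bp, with the CEBPb centre at the higher coordinate at 5614 sites and at the lower at 5423. Higher-scoring sites had closer centres, with medians of 14 bp in the lowest and 8 bp in the highest decile of CEBPa scores, and of 16 bp and 8 bp for CEBPb scores. For comparison, the median distance was 17 bp for JUND and FOSL2, 24 bp for CBP and p300, and 34 bp for the MED1 replicates.

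**Figure D2:**
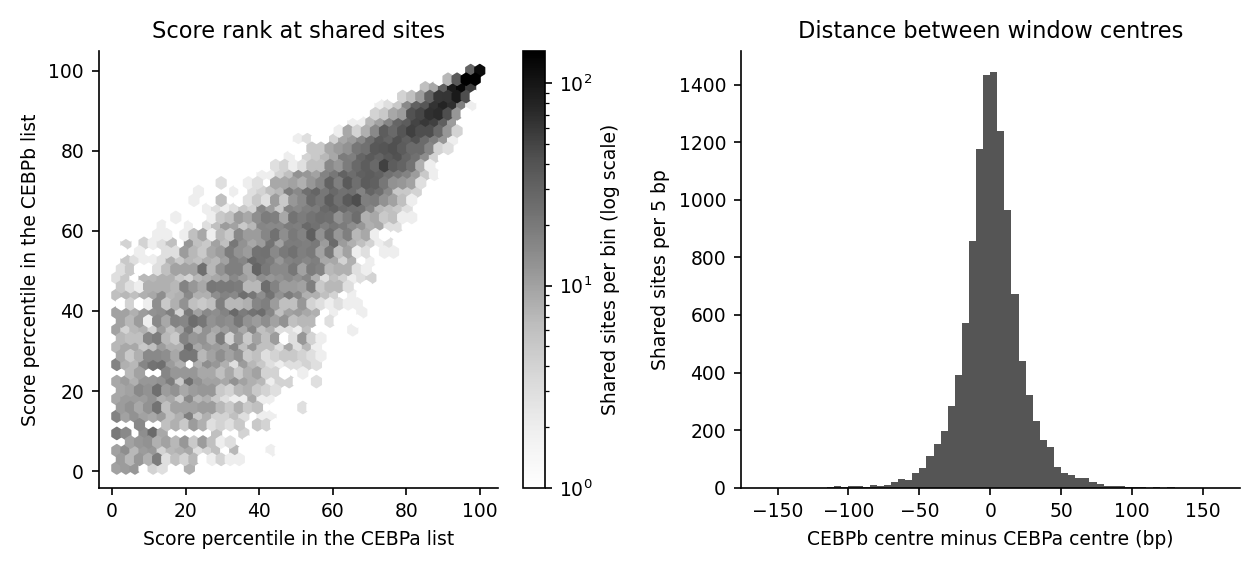
Left, the score percentile of each of the 11350 shared sites in the CEBPa list (horizontal) and in the CEBPb list (vertical), shaded by the number of sites per bin on a log scale; right, the number of shared sites per 5 bp of signed distance from the CEBPa centre to the CEBPb centre. Sites crowd along the diagonal, most tightly at high percentiles, and the distances are centred on 0 bp.

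The limit of the joining rule cut through few sites. The largest centre distance that was joined was 156 bp and the smallest that was not was 210 bp. There were 30 joined pairs with centres at least 100 bp apart, and 19 pairs left apart with centres less than 300 bp from each other. Requiring an overlap of 50% of the window moved the CEBPa-only count from 982 to 1009 and the CEBPb-only count from 3587 to 3614.

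Most single-factor sites lay 1 kb or more from any window of the other factor, but the higher-scoring CEBPa-only sites often did not. The median distance from a CEBPa-only site to the nearest CEBPb window was 18146 bp, and 9.1% had one within 1 kb. Of the 46 CEBPa-only sites above the 50th percentile, 24 (52.2%) had a CEBPb window within 1 kb, and their median distance was 817 bp. For CEBPb-only sites the median distance to a CEBPa window was 27830 bp, with 5.7% within 1 kb. Of the 319 CEBPb-only sites above the 50th percentile, 49 (15.4%) had a CEBPa window within 1 kb. For comparison, shared sites lay at a median of 24510 bp from their nearest other shared site, and 4.1% had one within 1 kb.

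Single sites show the range of these patterns. The highest-scoring CEBPa-only site, chr19:56625282-56625481, had a CEBPa score of 3.19 (percentile 87.1). It lay 16415 bp from the nearest CEBPb window and no other list of either condition had a window there. The next, chr15:66940302-66940501 with a CEBPa score of 3.06, lay 247 bp from chr15:66940055-66940254, which ranks 5 among the CEBPb-only sites with a CEBPb score of 3.93. These 2 classes of site were therefore neighbours at this place, and MED1 replicate 2, CBP, p300, JUND and FOSL2 windows overlapped both. The next 3 CEBPa-only sites by score lay 223, 889 and 231 bp from a CEBPb window.

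The highest CEBPb-only site was chr10:116550094-116550293, with a CEBPb score of 5.2 (percentile 97.1). Its nearest CEBPa window was 1262 bp away, and NCOR was the only other untreated protein listed there. By contrast, the second, chr9:102605080-102605279, had a CEBPb score of 4.87 and held both MED1 lists, CBP, p300, NCOR, ATF2 and JUND, with a CBP score of 8.06 and an NCOR score of 7.8. Its nearest CEBPa window lay 8314 bp away. A high CEBPb-only score thus occurred both with and without the coactivators MED1, CBP and p300, while NCOR was listed at both sites.

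The highest shared site, chr10:117506521-117506721, had scores of 9.77 for CEBPa and 11.45 for CEBPb, the top of both lists, with centres 1 bp apart. MED1 replicate 2 scored 1.04 and NCOR 1.52 there, below their list medians of 1.52 and 1.73, while CBP scored 3.71, above its median of 1.77. MED1 replicate 1 and p300 had no window. The second, chr6:115477152-115477371, had scores of 9.46 and 10.6 and lay in all 8 other untreated lists. There MED1 scored 19.98 and 18.0, which are the highest scores of both untreated MED1 lists, and p300 scored 17.81, the highest of its list. So the highest C/EBP scores were found with very different cofactor scores. The first of these sites lay in a stretch of chromosome 10, described below, where C/EBP scores were high and cofactors few.

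Cofactors were then counted in a 200 bp window at the centre of each site, so that all 3 classes were searched over the same width. MED1 is a subunit of Mediator, which links enhancer-bound factors to RNA polymerase II. In MED1 replicate 1, 17.6% (16.9 to 18.3) of shared, 9.7% (8.0 to 11.7) of CEBPa-only and 8.3% (7.5 to 9.3) of CEBPb-only sites held a window. In MED1 replicate 2 the shares were 18.9% (18.2 to 19.6), 8.2% (6.7 to 10.1) and 7.3% (6.5 to 8.2). Over all sites of the series, which include those defined by MED1 itself, the shares were 8.31% and 6.86%. Both replicates thus placed MED1 at shared sites about as often, and less often at either single-factor class.

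CBP and p300 acetylate histones and other proteins at active enhancers. CBP was at 44.9% (44.0 to 45.8) of shared, 25.4% (22.7 to 28.2) of CEBPa-only and 24.9% (23.5 to 26.3) of CEBPb-only sites, against 22.6% of all sites of the series. p300 was at 42.0% (41.1 to 42.9), 22.5% (20.0 to 25.2) and 22.6% (21.3 to 24.0), against 22.1%. The single-factor classes were therefore near the share of the whole series for both coactivators. CBP and p300 occurred together at 34.2% of shared, 16.4% of CEBPa-only and 15.8% of CEBPb-only sites.

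NCOR is a corepressor that brings histone deacetylase HDAC3 to chromatin. It was the most frequent cofactor at every class, at 64.6% (63.7 to 65.5) of shared, 39.2% (36.2 to 42.3) of CEBPa-only and 36.4% (34.9 to 38.0) of CEBPb-only sites, against 36.9% of all sites of the series. The NCOR list was also the longest of the untreated cofactor lists, with 25136 windows.

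**Figure D3:**
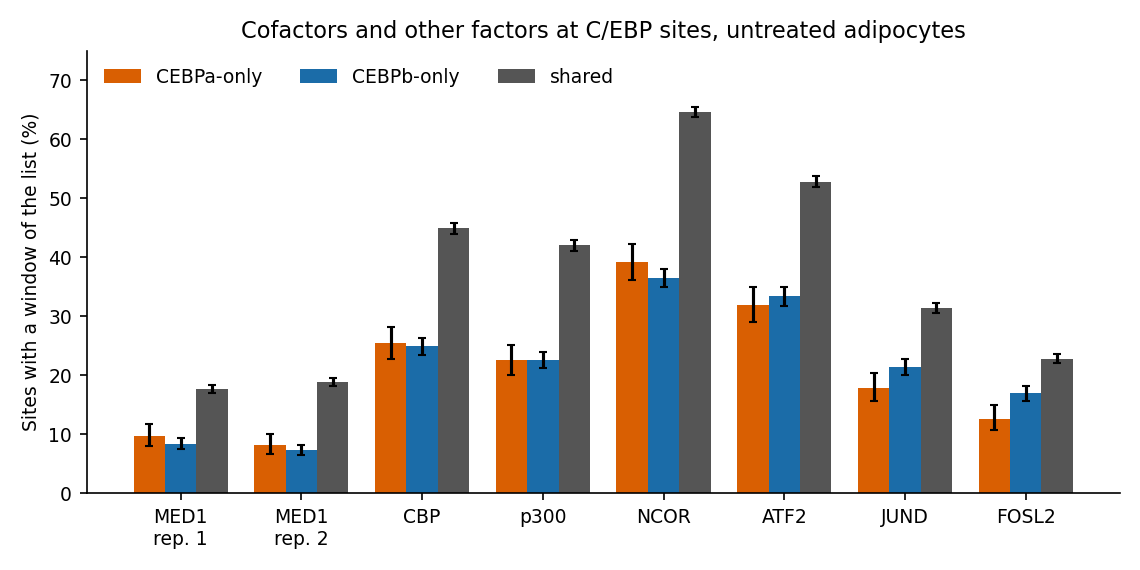
Percent of CEBPa-only, CEBPb-only and shared sites with a window of each untreated list in the central 200 bp (bars), with Wilson 95% intervals that cover counting error only. Shared sites stand above both single-factor classes for all 8 lists, and the CEBPa-only and CEBPb-only bars are close to each other for the cofactors.

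The differences between shared and single-factor sites were larger than counting error for every cofactor and had 1 direction on nearly every chromosome. For CEBPb-only minus shared they were -9.3 percentage points (Newcombe interval -10.4 to -8.1) for MED1 replicate 1, -20.0 (-21.7 to -18.3) in CBP, -19.4 (-21.0 to -17.7) in p300 and -28.2 (-30.0 to -26.4) in NCOR, with lower values on 20 of 20 chromosomes each. For CEBPa-only minus shared they were -7.9 (-9.8 to -5.8), -19.5 (-22.3 to -16.6), -19.5 (-22.2 to -16.6) and -25.4 (-28.5 to -22.2), in the same order. Here MED1 replicate 1 was lower on 19 of 20 chromosomes and the other 3 on 20.

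Cofactor shares were higher at higher C/EBP scores, and single-factor sites had low scores, so the classes were also compared at equal score. At shared sites, the share with NCOR was 43.5% in the lowest and 93.1% in the highest decile of CEBPa scores, and the share with MED1 replicate 1 was 6.9% and 41.5%. CBP was at 22.8% and 76.7%, and p300 at 20.6% and 74.8%. Shared sites were weighted to the score percentiles of each single-factor class, in bins of 5 percentiles.

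At equal score percentile the coactivator differences were small. For CEBPa-only minus shared, MED1 was at 1.1 percentage points (-1.0 to 3.2) in replicate 1 and -0.1 (-2.1 to 1.8) in replicate 2, CBP at -2.0 (-5.1 to 1.1) and p300 at -2.6 (-5.6 to 0.4). For CEBPb-only minus shared, MED1 was at -0.1 (-1.4 to 1.2) and -1.7 (-3.0 to -0.3), CBP at -1.9 (-4.1 to 0.2) and p300 at -2.4 (-4.4 to -0.3). The intervals of CBP included 0 in both comparisons, those of p300 and MED1 replicate 2 did not for CEBPb-only sites, and the sign of the MED1 replicate 1 value against CEBPa-only sites turned.

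Among the cofactors, NCOR had the widest difference at equal score percentile. Its share was 39.2% at CEBPa-only sites against 46.6% at score-weighted shared sites, a difference of -7.4 percentage points (-10.9 to -3.9). At CEBPb-only sites it was 36.4% against 46.2%, a difference of -9.7 (-12.2 to -7.2). In each of the lowest 5 deciles of CEBPb score the NCOR share was lower at CEBPb-only than at shared sites, from 31.7% against 39.2% in the lowest decile to 40.8% against 53.1% in decile 5. Above the 50th percentile it was 51.1% (45.6 to 56.5) at the 319 CEBPb-only sites, against 65.1% at score-weighted shared sites. For CEBPb-only sites the lower corepressor share was thus present at low and at high scores. For CEBPa-only sites NCOR was lower than at shared sites in deciles 1, 2, 4 and 5 of CEBPa score, and at 46.5% against 46.3% in decile 3. With 1 untreated NCOR list, whether a second library would show it was not tested.

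**Figure D4:**
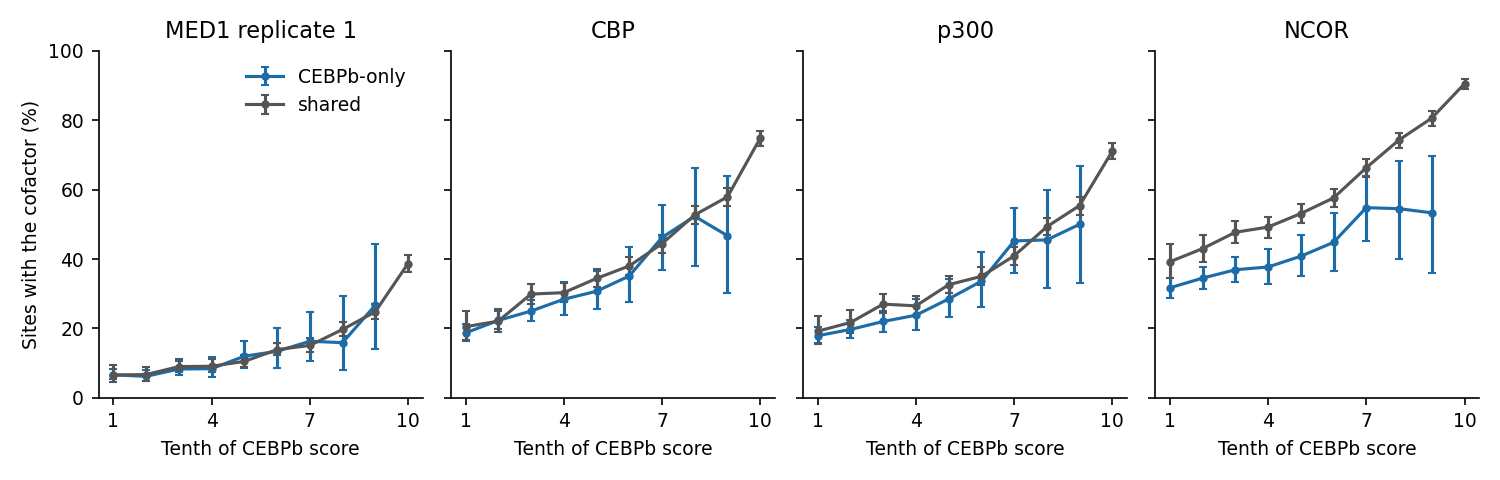
Percent of shared and CEBPb-only sites with a MED1 replicate 1, CBP, p300 or NCOR window (vertical axis) in each decile of CEBPb score (horizontal axis, 1 is lowest), with Wilson 95% intervals; points on fewer than 20 sites are left out. The 2 classes run close together for MED1 replicate 1, CBP and p300, though p300 is slightly lower at CEBPb-only sites in deciles 1 to 6. For NCOR the CEBPb-only points lie further below the shared points. MED1 replicate 2 is not drawn.

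The 46 CEBPa-only sites above the 50th percentile stood higher in MED1. Of these, 19 held MED1 replicate 1 (41.3%, 28.3 to 55.7), against 18.6% of score-weighted shared sites, and 15 held MED1 replicate 2 (32.6%, 20.9 to 47.0), against 21.1%. The second interval included its comparison value. CBP at 54.3% (40.2 to 67.8) and p300 at 52.2% (38.1 to 65.9) had intervals that included their comparison values of 49.2% and 46.2%, while NCOR was at 52.2% (38.1 to 65.9) against 70.2%. MED1 replicate 1 was at 11 of the 24 such sites with a CEBPb window within 1 kb and at 8 of the 22 without. At the 319 CEBPb-only sites above the 50th percentile, MED1 replicate 1 was at 16.9% (13.2 to 21.4) against 16.5%.

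The 2 single-factor classes could hardly be told apart by their cofactors. CEBPa-only minus CEBPb-only was 1.3 percentage points (-0.6 to 3.5) for MED1 replicate 1, 1.0 (-0.8 to 3.0) for MED1 replicate 2, 0.5 (-2.5 to 3.6) in CBP, -0.1 (-3.0 to 2.9) in p300 and 2.8 (-0.6 to 6.2) in NCOR. All 5 intervals included 0, which bounds a difference in this sample of sites and does not show that the classes were alike. These small values depended on the settings. At equal list length CBP moved to -5.8, p300 to -4.6, NCOR to 0.5 and MED1 (mean of 2 lists) to -1.3. At equal score percentile NCOR moved to 4.8 (1.3 to 8.3) and MED1 replicate 1 to 2.2 (0.1 to 4.3). Between these classes, equal percentile means equal rank in 2 lists of different length, which need not mean equal binding.

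**Figure D5:**
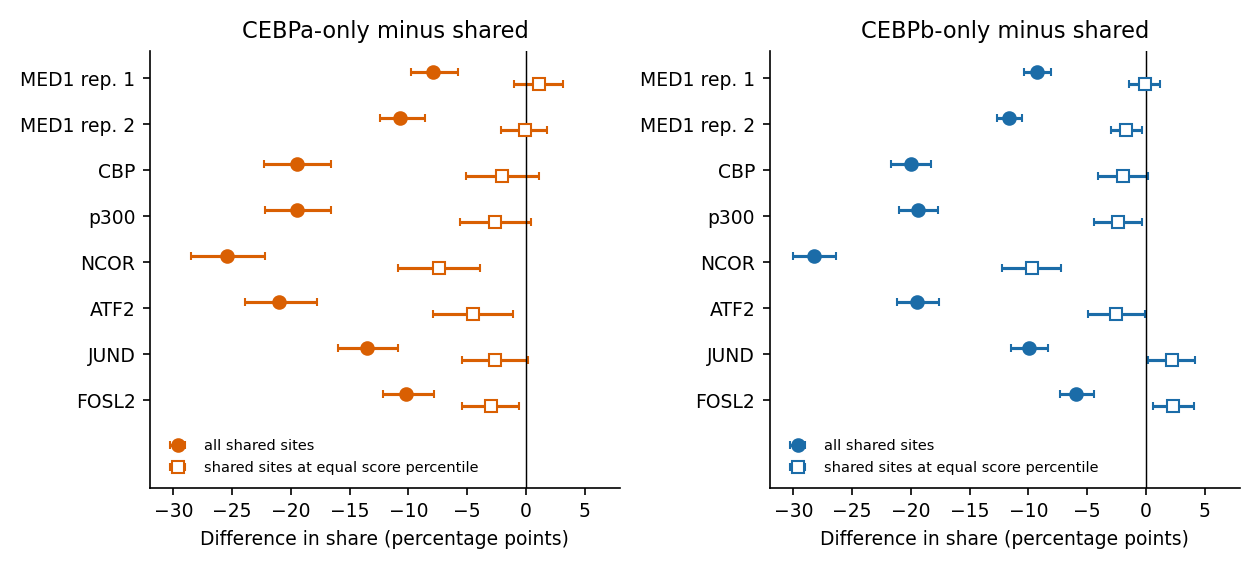
Difference in share between each single-factor class and shared sites in percentage points (horizontal axis) for each untreated list, with all shared sites (filled circles) and with shared sites weighted to equal score percentile (open squares), and 95% intervals for counting error. The open squares lie near 0 for MED1, CBP and p300, while NCOR stays below 0 in both panels.

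Combinations of cofactors differed between the classes. In these combinations MED1 counted as present where either of its untreated lists had a window. That was so at 26.4% of shared, 14.0% of CEBPa-only and 12.7% of CEBPb-only sites. Both MED1 lists had a window at 10.1%, 4.0% and 3.0%, in the same order. No window of MED1, CBP, p300 or NCOR was found at 28.0% (27.2 to 28.8) of shared, 49.2% (46.1 to 52.3) of CEBPa-only and 53.0% (51.4 to 54.7) of CEBPb-only sites. All 4 proteins were at 19.4% (18.7 to 20.2), 7.7% (6.2 to 9.6) and 7.1% (6.3 to 8.0). NCOR with at least 1 of the coactivators was the most frequent state of occupied shared sites, at 47.7%, against 22.5% of CEBPa-only and 23.3% of CEBPb-only sites. NCOR without the coactivators was at 16.9% (16.2 to 17.6) of shared, 16.7% (14.5 to 19.2) of CEBPa-only and 13.2% (12.1 to 14.3) of CEBPb-only sites, so the CEBPb-only share was the lower. Coactivators without NCOR were at 7.4% (6.9 to 7.9) of shared sites, below the 11.6% (9.8 to 13.8) of CEBPa-only and the 10.5% (9.6 to 11.6) of CEBPb-only sites.

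Where NCOR or CBP was present, its own window ranked higher in its list at shared sites, and NCOR windows lay slightly closer to the site centre. The median NCOR window lay 23 bp from the centre of a shared site, and at percentile 68.8 of the NCOR list. At CEBPa-only and CEBPb-only sites it lay 28 and 29 bp away, at percentile 53.3 in both. CBP windows were at percentile 71.5 at shared sites, and at 52.2 and 56.6 at CEBPa-only and CEBPb-only sites.

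Seen from the cofactors, their strongest windows were mostly at shared C/EBP sites. Of the windows in the highest decile of MED1 replicate 2, 82.5% lay at a shared site, against 21.6% in the lowest decile. The same values were 61.4% and 17.8% for MED1 replicate 1, 68.8% and 12.2% in CBP, 64.2% and 14.2% in p300, and 59.9% and 13.0% in NCOR. CEBPa-only sites took from 1.51% to 2.53% of the highest deciles, and CEBPb-only sites from 4.43% to 6.31%.

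The other leucine zipper factors were counted in the same way, and 2 of them, JUND and FOSL2, differed between CEBPa-only and CEBPb-only sites beyond counting error. ATF2, which can dimerise with JUN proteins, was at 52.8% of shared, 31.9% of CEBPa-only and 33.4% of CEBPb-only sites, against 35.5% of all sites of the series. JUND was at 31.4%, 17.8% (15.6 to 20.3) and 21.4% (20.1 to 22.8), against 34.6%. FOSL2 was at 22.8%, 12.6% (10.7 to 14.9) and 16.9% (15.7 to 18.1), against 33.5%. Unlike the cofactors, the AP-1 subunits were thus listed less often at every C/EBP class than over the whole series, whose sites include their own.

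CEBPa-only minus CEBPb-only was -4.2 percentage points (-6.5 to -1.7) for FOSL2, lower on 17 of 20 chromosomes, and -3.1 (-5.5 to -0.6) at equal score percentile. For JUND it was -3.6 (-6.3 to -0.8), lower on 15 of 20 chromosomes, and -1.9 (-4.7 to 0.9) at equal score percentile, where the interval included 0. For ATF2 it was -1.5 (-4.7 to 1.9), and 1.1 (-2.2 to 4.5) at equal score percentile. Percentiles here again come from 2 lists of different length. At equal list length ATF2 moved to -6.3 and JUND to -6.8. Against shared sites of equal score percentile, the AP-1 subunits were higher at CEBPb-only sites, by 2.2 (0.2 to 4.2) for JUND and 2.3 (0.6 to 4.1) for FOSL2. At CEBPa-only sites the values were -2.6 (-5.4 to 0.2) and -3.0 (-5.4 to -0.6). ATF2 was lower at both classes, at -2.5 (-4.9 to -0.1) for CEBPb-only and -4.5 (-7.9 to -1.1) for CEBPa-only sites.

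A related pattern was seen within the shared sites, between the 2270 with the lowest and the 2268 with the highest ratio of CEBPb to CEBPa score. At equal mean score percentile, the sites leaning to CEBPb held JUND more often by 3.9 percentage points (0.9 to 7.0) and FOSL2 by 3.4 (0.7 to 6.2). CBP differed by 0.4 (-2.8 to 3.6), p300 by 0.1 (-3.2 to 3.3) and NCOR by -3.0 (-6.3 to 0.3). MED1 differed by -1.0 (-3.0 to 1.0) in replicate 1 and -3.3 (-5.3 to -1.3) in replicate 2. FOSL2 was thus more frequent at CEBPb-only than CEBPa-only sites, and at the shared sites leaning most to CEBPb than at those leaning most to CEBPa. These differences were a few percentage points, with 1 library per factor. Over 5 groups of shared sites from lowest to highest ratio, unweighted FOSL2 shares were 19.0%, 22.2%, 24.8%, 24.2% and 23.8%. JUND shares were 25.7%, 31.5%, 33.2%, 35.0% and 31.4%. Neither rose steadily toward CEBPb, and the group leaning most to CEBPa was the lowest. That group was also the lowest for MED1 replicate 1, CBP, p300, NCOR and ATF2, though not for MED1 replicate 2. Its mean score percentile was the lowest too, at 46.7 against 54.9 to 61.7, so the unweighted shares are not particular to the AP-1 subunits.

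In the rosiglitazone lists each cofactor was more or less frequent than untreated in the same direction at all 3 classes, though not always beyond counting error. C/EBP binding itself was measured in untreated cells only, so the classes are those of untreated cells. CBP was at 44.9% of shared sites untreated and 33.6% (32.7 to 34.4) treated, at 25.4% and 16.5% (14.3 to 18.9) of CEBPa-only sites, and at 24.9% and 16.8% (15.6 to 18.1) of CEBPb-only sites. The treated CBP list was also the shorter, at 9515 against 15383 windows. NCOR was at 64.6% and 68.1% (67.2 to 69.0) of shared, 39.2% and 45.4% (42.3 to 48.5) of CEBPa-only, and 36.4% and 40.9% (39.3 to 42.5) of CEBPb-only sites, with 25136 and 28491 windows in all. p300 was at 42.0% and 36.7% (35.8 to 37.6) of shared sites, against 22.1% and 20.1% over the series. Its values were 22.5% (20.0 to 25.2) and 20.1% (17.7 to 22.7) at CEBPa-only sites, where the intervals overlapped, and 22.6% (21.3 to 24.0) and 20.0% (18.8 to 21.4) at CEBPb-only sites, where they overlapped slightly.

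MED1 was listed at more sites of each class after treatment in both replicates, for example 17.6% and 20.8% (20.1 to 21.5) of shared sites in replicate 1, and 18.9% and 21.3% (20.6 to 22.1) in replicate 2. Over all sites of the series MED1 went from 8.3% to 11.9% in replicate 1 and from 6.9% to 10.4% in replicate 2, a larger relative difference than at shared sites. The MED1 lists grew from 5660 to 8069 and from 4656 to 7104 windows. Cofactor windows at shared sites were found again after treatment more often than those at single-factor sites. For NCOR, 90.1% (89.4 to 90.8) were found again at shared, 83.9% (79.9 to 87.2) at CEBPa-only and 80.2% (77.9 to 82.3) at CEBPb-only sites, against 75.8% over the series. For CBP the values were 67.7% (66.4 to 69.0), 52.6% (46.4 to 58.7) and 58.3% (55.0 to 61.5), against 51.6%. For p300 the CEBPa-only value of 67.9% (61.5 to 73.7) had an interval that included the shared value of 73.1%. The same held in MED1 replicate 2, with 54.3% (43.5 to 64.7) against 61.4%. Cofactor windows at shared sites also ranked higher in their own untreated lists, and these shares were not compared at equal rank. Changes that move with the length of a list cannot be told apart here from changes at the sites, with 1 list per condition for CBP, p300 and NCOR.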

How the data were processed

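The peak lists used were deposited by the authors, with a score per peak in the fifth column that is not defined there or in the labels. All windows were 200 bp wide. The submitters' processing notes name Bowtie, bedtools, HOMER and the genome build mm8, without roles. The series has an input library, not analysed here. Versions, peak thresholds and the role of that input: not given in the sources used here. In both C/EBP lists the scores were whole multiples of a fixed step, 0.0259 for CEBPa and 0.0294 for CEBPb (100.0% of scores to within rounding), with lowest scores of 39 and 34 steps.

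Lists were joined, ranked and compared with Python 3.11.15, numpy 2.4.6, pandas 2.3.3 and scipy 1.17.1. Coordinates are 1-based mm8. Percentiles are ranks within a list. Shares carry Wilson and differences Newcombe 95% intervals. Differences at equal score percentile weight one class to the other in bins of 5 percentiles, with normal intervals. The steps were tested on simulated data. No p-value was computed, since each C/EBP factor has 1 list. Named sites are the 5 highest-scoring CEBPa-only, CEBPb-only and shared sites, and the 3 with the widest percentile gap each way, from which the text takes some. The classes, lists and comparisons were chosen with earlier results of these data known. Gene names and motifs were not assigned, and the nascent transcription samples were not analysed here.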

Additional observations from a re-analysis of the deposited data

How the results depend on the processing

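Of 156 alternative values, 109 stayed within their limits and 47 did not. The limits were counting error, or 1.5 times for the counts of single-factor sites. For MED1 the limit was instead the standard deviation between its 2 lists around their mean. Between the single-factor classes that MED1 limit ran from 0.9 to 1.41, narrower than the counting error interval of -0.6 to 3.5 for replicate 1. Differences from shared sites changed sign 3 times. The small differences between the single-factor classes did so 6 times, for MED1, CBP, p300 and ATF2, whose counting error intervals included 0. With C/EBP lists of equal length, shares became 85.1% for both factors, with 1834 sites in each single-factor class. Percentile gaps to shared sites became -44.0 for CEBPa-only and -39.4 for CEBPb-only sites. CEBPa-only minus shared was -23.5 for CBP and -22.2 for p300, CEBPb-only minus shared was -17.6 for both, and CEBPa-only minus CEBPb-only was -1.3 for MED1 (mean of 2 lists), -5.8 for CBP and -4.6 for p300. In the upper 50% of each list, 93.9% of CEBPa and 77.5% of CEBPb sites were shared, with 375 and 1677 single-factor sites, a median distance of 9 bp, a rho of 0.89 and a CEBPb-only percentile gap of -45.6. There CEBPb-only minus shared was -14.1 for MED1 and -23.7 for NCOR, CEBPa-only minus shared was -15.8 for p300 and -20.1 for NCOR, and CEBPa-only minus CEBPb-only was 4.5 for MED1 and 4.9 for p300. At equal score percentile, CEBPa-only minus shared was 0.5 for MED1, -2.0 for CBP, -2.6 for p300 and -7.4 for NCOR. CEBPb-only minus shared was -0.9, -1.9, -2.4 and -9.7, and it changed sign to 2.2 for JUND and 2.3 for FOSL2. CEBPa-only minus CEBPb-only was 2.0 for MED1. An overlap of 50% moved the CEBPa-only percentile gap to -39.8 and no other of its 29 values. Keeping only single-factor sites 1 kb or more from the other factor, an alternative chosen after seeing the data, moved MED1 between the single-factor classes to 0.3 and no other of 21 values. The alternatives for ATF2, JUND and FOSL2 were also chosen after seeing the data. Searching the whole joined site moved none of 21 values. Leaving out either MED1 list moved none of 3, but this was fixed in advance. The MED1 limit, the standard deviation between 2 lists, is always wider than the shift from leaving 1 out. No paired analysis was possible because each C/EBP factor has a single list and these results come from no test. Depth is unknown, so a missing window does not show that a factor was absent.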

Other observations

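A stretch of chromosome 10 stood out for strong C/EBP windows with few cofactors, and was chosen after its values were seen. Between positions 116353609 and 117838047 (mm8) there were 26 C/EBP sites, of which 19 were shared and 7 CEBPb-only. The median percentile was 94.6 in the CEBPa list and 95.4 in the CEBPb list. MED1 replicate 1 had no window at these sites, MED1 replicate 2 had 2, CBP 3, p300 5 and NCOR 9. Over all shared sites the shares, in the same order, were 17.6%, 18.9%, 44.9%, 42.0% and 64.6%. Over all CEBPb-only sites they were 8.3%, 7.3%, 24.9%, 22.6% and 36.4%. The stretch held 3 of the 100 highest CEBPa windows and 5 of the 100 highest CEBPb windows, against 0.15% and 0.17% of all windows of these lists. None of the 100 highest windows of MED1, CBP, p300 or NCOR lay there. The stretch held only 0.0% to 0.08% of all windows of those lists, so finding none among 100 says little. The highest shared and the highest CEBPb-only sites both lay here. The input library was not analysed, so whether signal in this stretch was also raised without a C/EBP antibody was not tested.

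C/EBP sites were mostly solitary. With sites chained where neighbouring centres lay at most 10 kb apart, 62.5% stood alone, and 53 chains of 5 or more sites held 293 sites. These chains took 1.9% of shared, 1.8% of CEBPa-only and 1.6% of CEBPb-only sites. The chain with the most sites, at chr16:92128558-92164807, held 8 sites, of which 3 were shared, 3 CEBPa-only and 2 CEBPb-only. CBP was at 5 of these 8 sites, and MED1 replicate 1, p300 and NCOR were at 4 each.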
